A study of Drosophila melanogaster with 2 samples.

Results

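The genes drm, sob, odd and bowl form the odd-skipped family of Drosophila melanogaster, 4 genes that encode zinc-finger proteins and lie within 244.9 kb of chromosome arm 2L. They were taken by symbol from the Ensembl annotation, 4 of 13945 protein-coding genes on the main arms, and each was described by every dmrt93B summit in its gene body or within 10 kb of it. The family was chosen by these same measured values, the number, signal and replicate matches of its summits, so the values are a description and no test was made of them. The libraries are labelled as chromatin immunoprecipitation sequencing (ChIP-seq) of dmrt93B, a DM-domain protein, in whole larvae at the third instar, in the wandering stage, males and females together, so cells of all tissues are mixed. All larvae came from a single transgenic line, dmrt93B-GFP, that carries dmrt93B with GFP at its C-terminal end. They form 1 group of 2 biological replicates, with no other group to compare, and no control library was used here. In conflict with the antibody label, the free text of both samples speaks of an input control.

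Odd-skipped proteins bind DNA through zinc fingers of the C2H2 type. Odd was found as a pair-rule gene of the embryonic segments. Bowl is needed for the foregut and hindgut, for the joints of the leg and for the developing retina. The protein Lines holds Bowl down, and Drumstick, the product of drm, binds Lines and so releases Bowl. Sob, named as the sister of odd and bowl, is expressed in segmental patterns much like those of odd.

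A summit is the highest point of a peak, and its signal is the peak strength written by the authors' peak caller, on a scale that is used here only within a list. The optimal list, drawn from both replicates past a threshold on irreproducible discovery, held 4159 summits with a median signal of 217. The pooled list and each replicate list held 30000 entries. Every optimal summit of the family had the same q value, the ceiling of the list at a −log10 of 3.91. So had 4044 of all 4159 optimal summits, and the peaks are therefore ordered by signal. The read depth is unknown, and the precision of the counts rests on 2 replicates.

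Optimal summits were dense at bowl, fewer and distal at drm and sob, and absent at odd. The windows held 10 summits at bowl, 3 at drm, 3 at sob and 0 at odd, 16 in all. A summit was thus present at 3 of 4 members, where 49.9% of all protein-coding genes had at least 1. The count of 10 at bowl was reached or exceeded by 0.215% of genes, and the count of 3 by 12.7%. Summits and not peaks were counted at every gene. At bowl the peaks of the summits at 3771402 and 3771602 overlap, as do those of the summits at 3773316 and 3773517. Per length, bowl had 3.08 summits per 10 kb, sob 1.32, drm 1.03 and odd 0, and the 4 windows together, 106.9 kb, had 1.497. The genome had 0.311 optimal summits per 10 kb. The median gene had 0 summits in its window.

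**Figure D1:**
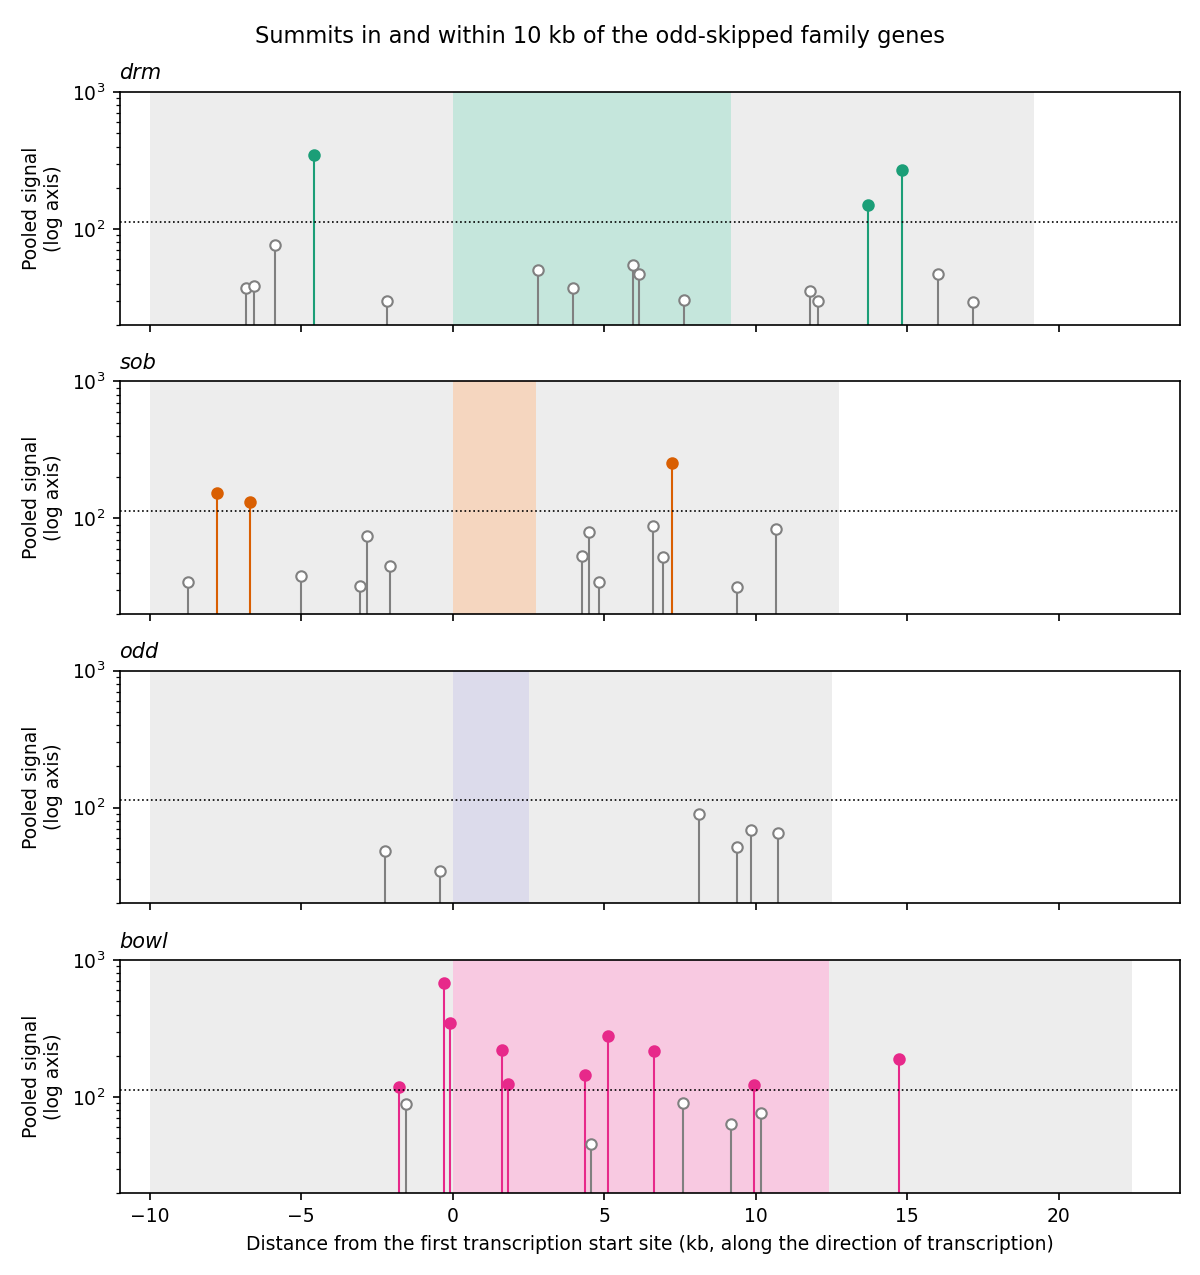
Pooled signal (log axis) of each summit against its distance in kb from the first transcription start site of drm, sob, odd and bowl. Filled points are optimal summits and open points are other pooled summits, the coloured band is the gene body, the grey bands are the 10 kb to each side, and the dotted line is the lowest optimal signal, 113. The filled points sit mostly at the start and in the body of bowl, and outside the bodies of drm and sob. None falls in the window of odd, and an optimal summit 10036 bp from odd lies just outside it.

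**Figure D2:**
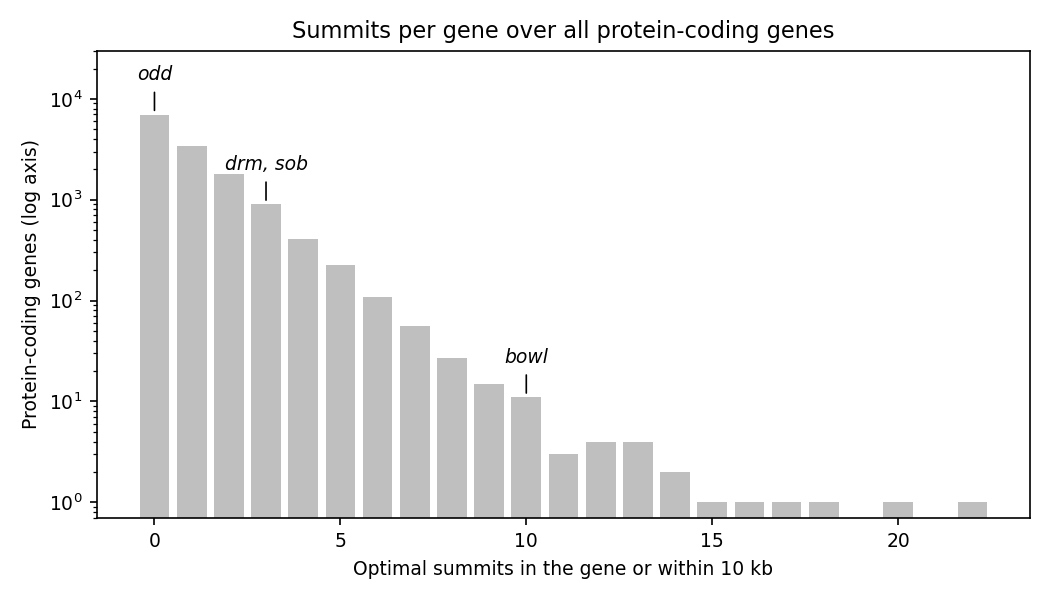
Number of protein-coding genes (log axis) by the number of optimal summits in the gene or within 10 kb. bowl stands at 10 summits, drm and sob at 3 and odd at 0.

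bowl (FBgn0004893, dm6 2L 3771700 to 3784121, plus strand, 7 annotated transcripts from 4 start sites) was the only member with an optimal summit at its own promoter, meaning within 500 bp of one of its start sites. An optimal promoter summit was found at 13.1% of all protein-coding genes. A pair of summits 200 bp apart lay just before the first start site. The stronger, at position 3771402, was 298 bp upstream, in a peak from 3771307 to 3771665, with an optimal signal of 675 and rank 337 of the optimal list. The weaker, at position 3771602, was 98 bp upstream with a signal of 345 and rank 1164. In replicate 1 a single entry at 3771535, between the pair, had a signal of 375 and rank 343, so that both optimal summits were matched by the same entry. In replicate 2 both were resolved within 5 bp, with signals of 322 and 155 and ranks 271 and 1151. The promoter peak of bowl was therefore high in both replicates. Its split into a pair of summits was seen in replicate 2 and in the pooled data, which include replicate 2.

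Of the 10 optimal summits at bowl 6 lay inside the gene, all of them intronic. Those at 3773316, 3773517, 3776052, 3776830 and 3778353 fell in intron 2 of all 6 transcripts that start in the upstream part of the gene. The strongest of them, at 3776830, had a signal of 278 and stood at rank 1521 in replicate 1 and 1429 in replicate 2. The summit at 3773316 had a signal of 219.7, and its close neighbour at 3773517, 201 bp away, had 125. In replicate 1 these too shared an entry, at 3773378 with a signal of 137. The summit at 3778353, with a signal of 217, lay 585 bp upstream of the internal start site of transcript bowl-RA and so just outside the promoter window. It was also, at rank 2079, the last of the 2079 strongest optimal summits. The summits at 3776052 and 3781633 had signals of 145 and 123. The intronic summits thus ran from above the median of the optimal list to close to its end.

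The other 2 summits at bowl lay outside the gene and away from its promoter. One, at 3769935, was 1765 bp upstream of the first start site, in the exon of lncRNA:CR43704, with a signal of 118 and rank 3979. The other, at 3786437, lay downstream of bowl and of the pseudogene CR31958 and before bark, which encodes a protein of tricellular junctions. Its signal of 191 and rank 2384 came with a replicate 2 entry at the same base, of signal 88.5 and rank 2589. Replicate 1 had no entry within 4645 bp of it. In the 10 kb downstream of bowl replicate 1 listed 0 entries and replicate 2 listed 6, and the reason was not tested.

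The sequences below show the DNA under the summits that carry the account, each as the 101 bp centred on the summit, plus strand of the NCBI Release 6 sequence, which has dm6 coordinates. Capitals mark TTAAAA or its reverse complement, the only searched motif found in them. None of the windows overlaps an annotated exon. The summits are the promoter pair and the strongest intronic summits of bowl, the strongest of drm and sob, and for odd the strongest pooled summit, which was outside the optimal list.
bowl, promoter, chr2L:3771352-3771452: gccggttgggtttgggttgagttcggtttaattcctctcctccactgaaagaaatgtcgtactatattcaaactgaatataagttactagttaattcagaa
bowl, promoter, chr2L:3771552-3771652: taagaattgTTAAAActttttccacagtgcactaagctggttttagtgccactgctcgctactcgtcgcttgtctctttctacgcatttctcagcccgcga
bowl, intron 2, chr2L:3776780-3776880: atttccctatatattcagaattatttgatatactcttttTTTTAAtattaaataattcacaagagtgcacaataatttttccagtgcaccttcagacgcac
bowl, intron 2, chr2L:3773266-3773366: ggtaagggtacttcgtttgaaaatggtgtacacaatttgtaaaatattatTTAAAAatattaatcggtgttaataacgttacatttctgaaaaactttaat
bowl, intron 2, chr2L:3778303-3778403: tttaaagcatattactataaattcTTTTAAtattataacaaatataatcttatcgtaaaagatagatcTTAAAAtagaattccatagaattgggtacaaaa
drm, upstream, chr2L:3534608-3534708: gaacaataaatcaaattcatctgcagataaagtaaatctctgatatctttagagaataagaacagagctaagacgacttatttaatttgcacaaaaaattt
drm, downstream, chr2L:3554035-3554135: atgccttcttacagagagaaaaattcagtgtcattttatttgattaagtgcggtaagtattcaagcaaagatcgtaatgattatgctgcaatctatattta
sob, downstream, chr2L:3573491-3573591: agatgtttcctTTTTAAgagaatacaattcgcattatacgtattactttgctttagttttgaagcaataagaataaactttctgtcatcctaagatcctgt
odd, pooled only, chr2L:3598579-3598679: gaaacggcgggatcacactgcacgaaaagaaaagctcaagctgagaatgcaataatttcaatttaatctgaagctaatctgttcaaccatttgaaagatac

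drm (FBgn0024244, 2L 3539247 to 3548423, plus strand, 3 transcripts from 2 start sites), which encodes the protein that binds Lines, had 3 optimal summits, none of them in the gene body. The strongest, at 3534658, lay 4589 bp upstream of the first start site between IFT57 and lncRNA:CR44308, with a signal of 346 and rank 1157. Its matched entries stood at rank 964 in replicate 1, with a signal of 202, and at rank 1246 in replicate 2, with a signal of 148.5. The other 2 lay downstream of the gene, 1140 bp apart. That at 3554085 had a signal of 269.6 and ranks of 1312 and 2215 in replicates 1 and 2. That at 3552945 had a signal of 149.8 (rank 3086) and ranks of 2215 and 7013, so it was among the 4159 strongest entries of replicate 1 and not of replicate 2. Within the gene body the pooled list had 5 summits, all below the optimal list, with the strongest at 3545200 in a 5' UTR (signal 54.6, rank 9264).

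sob (FBgn0004892, 2L 3578013 to 3580769, minus strand, 1 transcript) also had 3 optimal summits and none in its body. The strongest lay downstream, at 3573541, 7228 bp past the start site, with a signal of 253, and ranks of 1233 in replicate 1 and 2604 in replicate 2. A pair 1104 bp apart lay upstream. Of these, the summit at 3587460 (signal 132, rank 3511) was 6691 bp upstream of sob and 9 bp inside the non-coding gene lncRNA:TS2, which made it a promoter summit of that gene. The summit at 3588564 (signal 154, rank 3009) lay 7795 bp upstream, in an exon of lncRNA:CR43823. In replicate 1 they had ranks of 3480 and 2556, and in replicate 2 of 3778 and 4282, so their order was opposite in the replicates. Within the 10 kb windows drm and sob each had a single summit on one side, upstream at drm and downstream at sob. Each had a pair on the other side, 1.14 kb (drm) or 1.10 kb (sob) apart, and none at the promoter. This layout depends on the window, as the counts were 2 at drm and 1 at sob with 5 kb, and 4 and 5 with 20 kb.

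odd (FBgn0002985, 2L 3604224 to 3606756, minus strand, 1 transcript), the pair-rule gene, had no optimal summit and 6 pooled ones, all outside its body. The strongest of these, at 3598629, lay 8127 bp past the start site, with a signal of 90.3 and rank 5293, below the optimal list. Its matched entries stood at ranks 3830 in replicate 1 and 14903 in replicate 2. The only pooled summit at its promoter, at 3607163, 407 bp upstream, had a signal of 34.6 and rank 18409, with no entry of replicate 1 within 1841 bp. The absence at odd depends on where the window ends. An optimal summit at 3594188 (signal 207, rank 2199) lay 10036 bp from the gene and 13.4 kb from sob, just outside both windows, with its nearest start site that of lncRNA:CR43823. On the other side the nearest optimal summit was 25.7 kb away, inside the foraging gene for, with a signal of 1004 (rank 131).

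Between the windows of drm and sob there was 1 optimal summit, at 3566747, with a signal of 177 (rank 2606). It lay 11.3 kb from sob and 18.3 kb from drm. odd and bowl are 164.9 kb apart with 32 other protein-coding genes between them, and the stretch between their windows held 8. Left of drm the next optimal summit was 63.2 kb away, with a signal of 125. Beyond the bowl window the next were 51.9 kb (signal 114) and 20.6 kb (signal 322) from the gene. At the strength threshold, the weakest summit inside the optimal list was that at 3769935 near bowl (118, as given above), and the strongest pooled ones outside were at odd (90.3), at 3779304 in bowl (89.96), at 3770141 near bowl (89.3) and near sob (87.8). In the list as a whole the lowest optimal signal was 113, and no family summit lay between 90.3 and 118.

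The order of the genes was similar in each replicate when the 4159 strongest entries of each list were used. bowl had 9 summits in replicate 1 and 6 in replicate 2 (7.50 ± 2.12, SD, n = 2). sob had 4 and 2 (3 ± 1.41), drm 3 and 2 (2.50 ± 0.707), and odd 1 and 0 (0.5 ± 0.707). The values of bowl did not overlap those of the other 3 genes, while drm and sob overlapped and could not be ordered. A summit was present at 4 of 4 members in replicate 1 and at 3 of 4 in replicate 2, where 43.5% and 57.3% of all protein-coding genes had one. In these lists a count as high as that of bowl was found at 0.337% of genes in replicate 1 and 1.53% in replicate 2. The first place of bowl did not hold in the full lists of 30000 entries. Replicate 1 had 13 summits at bowl, 14 at drm, 14 at sob and 6 at odd, and replicate 2 had 21, 16, 13 and 10. The means were 17.0 ± 5.66 at bowl, 15.0 ± 1.41 at drm, 13.5 ± 0.707 at sob and 8 ± 2.83 at odd (SD, n = 2), and the ranges of bowl, drm and sob overlapped. The pooled list had 15 at bowl, 16 at drm, 15 at sob and 6 at odd. Per 10 kb this was 4.63 at bowl, 5.48 at drm, 6.59 at sob and 2.66 at odd.

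**Figure D3:**
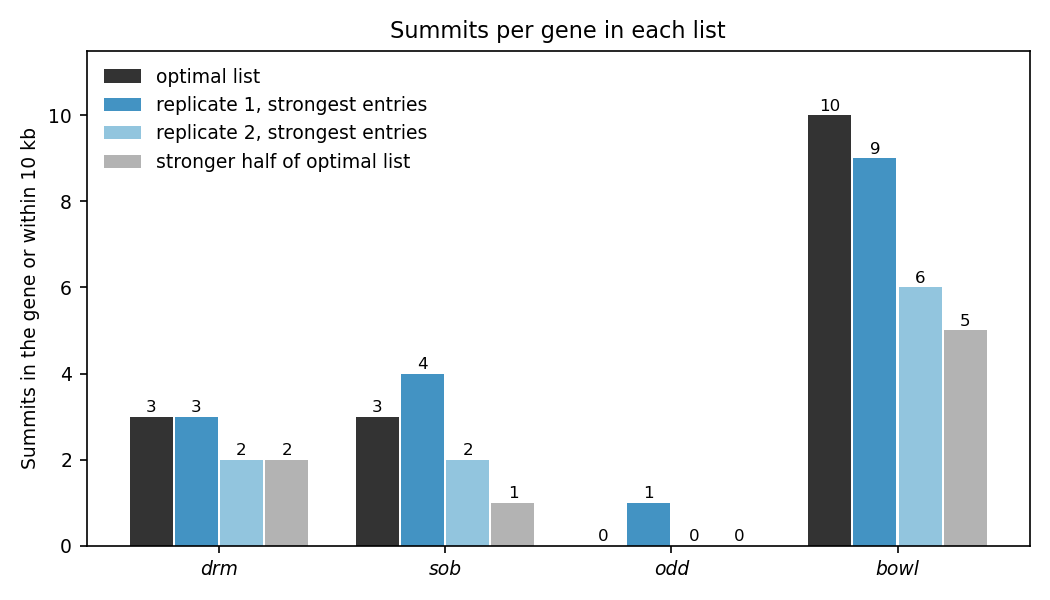
Number of summits in each gene or within 10 kb, for the optimal list, the 4159 strongest entries of each replicate and the 2079 strongest optimal summits. bowl has the tallest bar in each list, from 5 to 10, and odd has a summit in replicate 1 only.

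Nearly all optimal summits of the family had entries in both replicates. With summits within 200 bp taken as matched, 15 of 16 were found in both full lists (93.8%, 95% Wilson interval 71.7 to 98.9, counting error only), where the share over all optimal summits was 86.9%. The exception was the summit downstream of bowl. A high share is built into the optimal list, which was drawn past a threshold on irreproducible discovery. The summits at 3771402 and 3771602 share a replicate 1 entry, as do those at 3773316 and 3773517, so these matches are not separate. When only the 4159 strongest entries of each replicate were used, 9 of 16 were found in both, because 6 had matches of lower rank in replicate 2 and the exception had none in replicate 1. For 12 of the 15 that could be compared, the entry stood further down the list in replicate 2 than in replicate 1. These include 3771602 and 3773517, whose replicate 1 entry is shared with a stronger neighbour. Neither this count nor the 9 of 16 was made over all optimal summits, so neither can be called particular to the family. Of the 36 pooled summits below the optimal list 20 were matched in both full lists (55.6%, interval 39.6 to 70.5). The share over all 25841 pooled summits below the list was 28.2%. Rank was not matched in this comparison, as the 36 had ranks from 5293 to 24611 and the pooled list runs to 30000. By gene the 20 were 5 of 13 at drm, 6 of 12 at sob, 5 of 6 at odd and 4 of 5 at bowl. Summits of 1 locus share their libraries and are not independent.

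**Figure D4:**
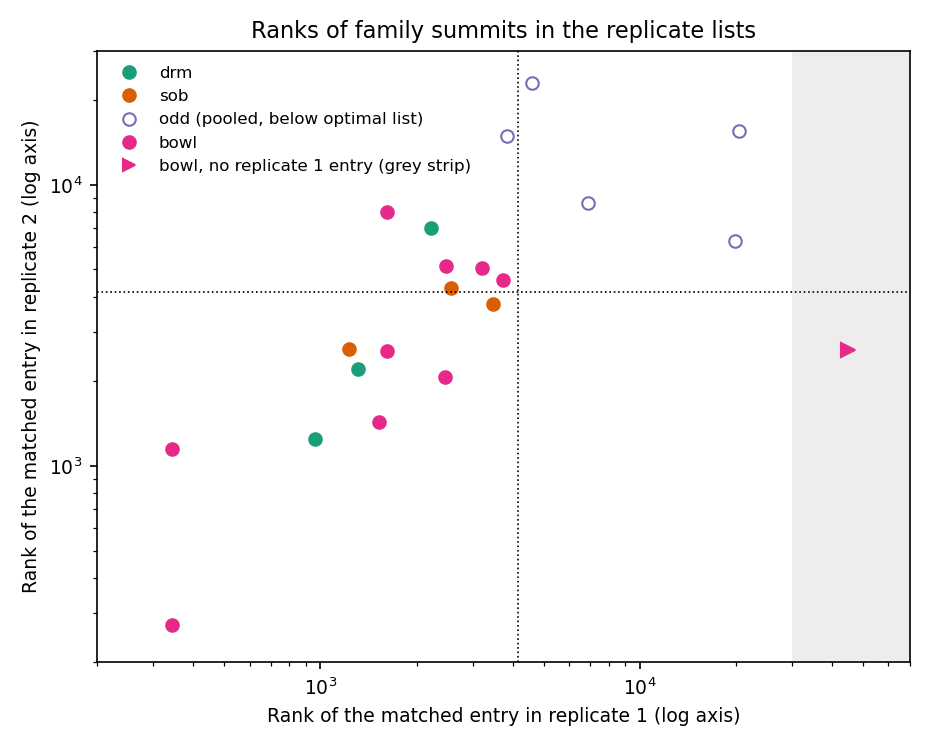
Rank of the matched entry in replicate 2 against that in replicate 1 (log axes, lower is stronger) for the optimal summits of drm, sob and bowl and for the pooled summits of odd with entries in both. Dotted lines mark rank 4159, the triangle in the grey strip is the bowl summit with no replicate 1 entry, and the bowl promoter stands lowest at ranks 343 and 271.

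By annotation, the 16 optimal summits comprised 6 in introns, 5 intergenic, 3 at promoters and 2 in exons of non-coding genes. The intronic ones were all in bowl, and the promoter ones were the pair at bowl and that at lncRNA:TS2. None fell in a coding exon or an untranslated region. These classes were not counted over the whole optimal list, so none of them can be called particular to the family. Among the 36 weaker pooled summits 2 were in 5' UTRs, 2 in 3' UTRs and 1 in a coding exon.

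The sequence at the optimal summits was AT-rich, a measure that the choice of the genes did not use but that was known for the whole optimal list. GC content in the 101 bp windows averaged 31.1% ± 8.08 (SD over 16 summits, range 18.8 to 45.5), against 44.9% ± 5.03 in the windows centred 500 bp to each side. It was lower than in the flanks at 15 of 16 summits and equal at the other, that at 3776052. Over all optimal summits the means were 32.96% and 43.7%, and the summit was below its flanks at 3442 of 4159. In the windows of the strongest replicate entries replicate 1 averaged 29.8% and replicate 2 averaged 32.3%, which gives 31.05% ± 1.74 (SD, n = 2). By gene the summits averaged 30.7% at drm, 27.7% at sob and 32.3% at bowl, where the whole 10 kb windows had 43.3%, 43.8% and 42.5%. The lowest was the intronic summit at 3778353 (18.8%), and the highest were the promoter summit at 3771602 and the downstream one at 3786437, both 45.5%. The 36 pooled summits outside the optimal list averaged 41.9% ± 11.3 and were below their flanks in 19 cases.

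**Figure D5:**
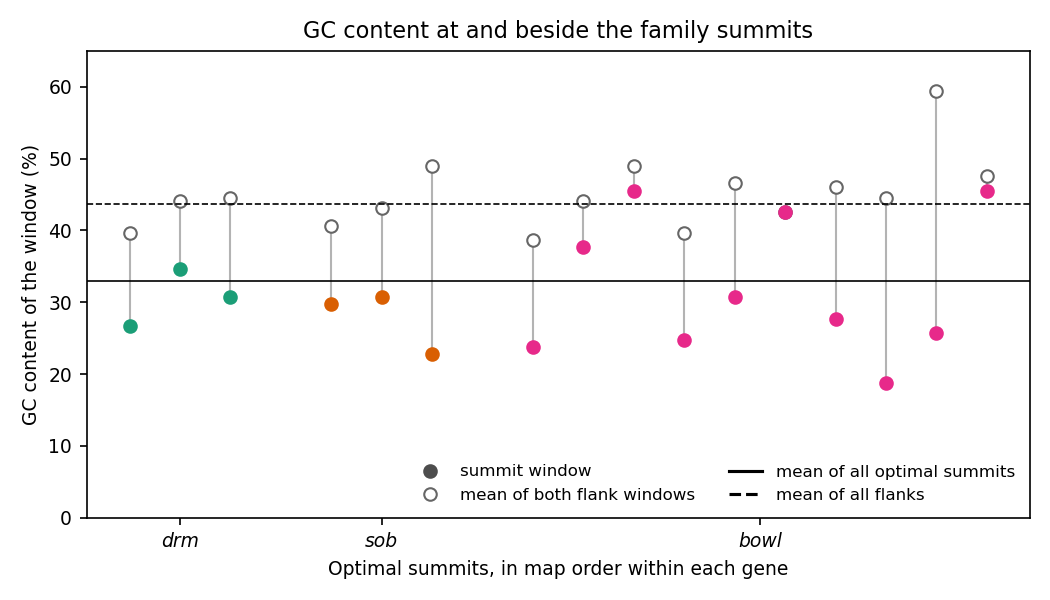
GC content (%) of the 101 bp at each optimal summit of drm, sob and bowl (filled) and the mean of its flank windows (open), in map order. Lines are the means over all optimal summits (32.96%) and their flanks (43.7%), and the filled point is the lower of the pair at 15 of 16 summits.

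Of the 6 motifs searched on both strands in these windows only TTAAAA was found, in 8 of 16 (50%), against 33.8% of all optimal windows of the same length. It was in 7 of 10 windows at bowl, 1 of 3 at sob and 0 of 3 at drm. TTAAAA was already known to be frequent at the summits of these libraries. The DM-domain sites ACAATGT and TGTATCA were in none of the 16, and in 2.04% and 1.32% of all optimal windows. CAGTAGC, the core of the site of the odd-skipped proteins, was in none and in 0.649% of all. ATCGAT, the core of the Dref site, was in none and in 4.02%, and the homeodomain site TAATTA in none and in 10.8%. TAATTA was present in the replicate 1 window at 3776790, matched to the bowl summit at 3776830. It was also in the replicate 2 window at 3588545, matched to the sob summit at 3588564. The other replicate lacked it at each.

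In 6 lists of genes known to act with the family or in the same tissues, 45.5% to 81.8% of genes had a summit in the gene or within 10 kb and 0 to 18.2% had one at a promoter. Over all protein-coding genes these shares were 49.9% and 13.1%. In the list for the lines and bowl pathway, 9 of 11 genes (81.8%) had an optimal summit in the gene or within 10 kb and 2 (18.2%) had one at a promoter, bowl and gro. gro encodes the corepressor Groucho and had a promoter signal of 722 (3R position 26042506, rank 286), close to that of bowl. N, the Notch receptor gene, had its strongest summit, of signal 551, outside the promoter. Every list holds members of the family, so none is independent of the account above. Without them, 6 of 7 genes of the lines and bowl pathway had a summit nearby, 5 of 10 pair-rule genes, 10 of 15 for the hindgut and foregut, 13 of 18 for the leg, 7 of 12 for the eye disc and 9 of 13 for nephrocytes and the lymph gland.

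Among 11 pair-rule genes 5 (45.5%) had a summit within 10 kb and 0 at the promoter. The strongest was at hry, the gene of the repressor Hairy, with a signal of 422, followed by a summit of 186 that slp1 and slp2 share. For hindgut and foregut patterning the counts were 13 of 18 genes (72.2%) within 10 kb and 3 (16.7%) at promoters. These were bowl, the forkhead gene fkh (signal 655, rank 357) and the caudal gene cad (signal 173). The signalling gene hh had a summit of 393 within 10 kb and none at its promoter.

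In the leg segmentation list 16 of 22 genes (72.7%) had a summit within 10 kb and 2 (9.09%) at promoters, bowl and dysf, a bHLH-PAS factor gene with a promoter signal of 307. bab1, which encodes a BTB-domain factor of the distal leg, had a signal of 601 outside its promoter. In the list for the eye disc 9 of 15 genes (60%) had a summit nearby and 2 (13.3%) at promoters, bowl and the retinal determination gene so (signal 187). dpp, which encodes a BMP ligand, had a nearby signal of 373.5. For nephrocytes and the lymph gland, where odd is expressed, the counts were 9 of 14 nearby (64.3%) and 1 (7.14%) at a promoter, that of the cardiac gene tin (signal 461). Here the nearby summits included some of the strongest, at ush, a GATA cofactor gene (signal 3137, rank 3), the endocytic receptor gene Cubn (1869) and the Hox gene Antp (619.7). Outside the family 6 of the 61 listed genes had an optimal promoter summit. The median count per gene over each list ran from 0 to 3, with 0 over all protein-coding genes, and window length was not matched between lists and genome.

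The genes most like bowl were found among 10 other genes with exactly 10 optimal summits, by the mean absolute difference in log2 of their strongest signal over 3 lists (optimal, replicate 1 and replicate 2). The closest was CG43736 on the X (difference 0.0298, signals 689, 361 and 323), then heca on 3R (0.0943, with 694, 398 and 289), the headcase gene, which acts in imaginal development, and Ptp61F on 3L (0.288), a tyrosine phosphatase gene. Over the same lists bowl had 675, 375 and 322. The gene bodies of heca and Ptp61F were longer, 94.5 kb and 132.8 kb against 12.4 kb for bowl, so that these 10 summits were spread over more DNA, while CG43736 spanned 17.7 kb. By summits per 10 kb, 0.208% of protein-coding genes reached the 3.08 of bowl.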

How the data were processed

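Peaks were measured by ChIP-seq in 2 replicates of 1 group. Per the labels, coordinates are on dm6. The authors deposited, per the text beside the files, a relaxed peak list per replicate, a pooled one and an optimal list past an irreproducible discovery rate threshold. No aligner, peak caller or depth was given in the sources used here. The deposited signal of each peak and its −log10 q value were used as given, and signals were compared only within a list.

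Summits were set against Ensembl release 115 genes, with 500 bp either side of a start site as promoter, and NCBI Release 6 sequence. Summits elsewhere were classed by exon type first, then as intronic or intergenic. Equal-length replicate lists were the 4159 strongest entries of each. Gene lists matched 11 of 11, 11 of 11, 18 of 18, 22 of 22, 15 of 15 and 14 of 14 symbols, 2 of them (h and Dl) through their current names. Named outside the family were neighbours holding, or nearest to, an optimal summit or lying beside one, the 3 listed genes with the strongest promoter or nearby summit per list, and the 3 genes most like bowl. The members, lists and motifs were chosen with earlier results of these data known, and no significance test was made. Alternatives changed the window, the match, the threshold, the promoter width, the sequence width and the replicate used. Counting, matching and motif search were checked on simulated positions. The scripts ran under Python 3.11.15 with pandas 2.3.3, numpy 2.4.6, matplotlib 3.10.9 and scipy 1.17.1.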

Additional observations from a re-analysis of the deposited data

How the results depend on the processing

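The count of 16 summits in the family windows was 13 with windows of 5 kb and 18 with 20 kb, 8 in the 2079 strongest optimal summits, and 10 to 17 when replicate 1 or replicate 2 was left out and the strongest entries of the other were used. bowl kept the highest count under each of these settings (5 to 10). Its 10 summits all lay within 5 kb, whereas sob went from 1 at 5 kb to 5 at 20 kb and odd from 0 to 3, as summits between the genes were taken in by more than one window. Presence in both replicates cannot be scored from 1 replicate, so the strongest entries of each were instead sought in the full list of the other. Of those of replicate 2, 9 of 10 (90.0%) had a match in replicate 1. Of those of replicate 1, 17 of 17 (100%) had one in replicate 2. These are matches in 1 direction, of other summits than the 16. The share found in both replicates, 93.8%, was 100% in the 2079 strongest, 81.25% within 100 bp and 93.75% within 500 bp. It was 56.25% with 50% reciprocal overlap of the peaks and 56.25% with the strongest replicate entries only. The second of these searches fewer entries by construction. The first cannot be met where a narrow optimal peak lies in a much wider replicate entry. At 3781633, for example, the optimal peak spans 108 bp and the matched entries 400 bp and 430 bp. It therefore depends on listed widths as well as on summit positions. The shares under these alternatives were not counted over all optimal summits. GC content was 34.5% with 100 bp either side and 29.8% to 32.3% with a replicate left out. bowl was the single member with a promoter summit in the optimal list with 200 bp, 500 bp or 1000 bp, in its 2079 strongest summits and in the strongest entries of each replicate. The full replicate 2 list also had a weak one at drm and at sob, and the pooled list one at odd. Outside the family 6 listed genes had promoter summits, and 4 to 7 under alternatives added after seeing the data. No paired analysis was possible because the samples form 1 group. Depth is unknown, so why a summit is missing from a list was not tested, and 2 replicates limit every SD.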

Other observations

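Beside the optimal summits, start sites in the family windows had pooled summits below the optimal list. CG43815, a protein-coding gene between sob and the strongest sob summit, had 3 pooled summits at its promoter, none of them in the optimal list, with signals of 34.1, 79.65 and 52.7. That of 79.65, at 3576275, was matched at rank 9318 in replicate 1 and 5763 in replicate 2. lncRNA:CR43704, upstream of bowl, had a pooled promoter summit at 3770141 with a signal of 89.3 and pooled rank 5360, below the optimal list. Its ranks in replicates 1 and 2 were 3868 and 9180. The internal start site of bowl-RA had a comparable one at 3779304, 366 bp downstream, with a signal of 89.96 and ranks of 3672 and 7874, so in replicate 1 alone it was among the 4159 strongest entries.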
